A study of Mus musculus with 6 samples.

Results

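Macroautophagy encloses cytoplasm in a double membrane, the autophagosome, which fuses with lysosomes, and mitophagy is the form of it that removes mitochondria. A set of 42 mouse genes for this route was chosen by symbol from the 55291 gene symbols of the deposited tables, covering the steps of initiation, the lipid kinase complex, lipid transfer, conjugation, the ATG8 proteins, cargo receptors, mitophagy and fusion with the lysosome. In outline, the ULK kinase complex starts the process, a complex with Becn1 makes phosphatidylinositol 3-phosphate, and an enzyme cascade links the small ATG8 proteins (the LC3 and GABARAP subfamilies) to lipid on the growing membrane. Cargo receptors and mitochondrial receptors bind those ATG8 proteins. Osteoclasts, which resorb bone, use part of this machinery to direct lysosomal secretion at the ruffled border.

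RNA sequencing compared 3 shUSP8 libraries with 3 shCtrl libraries of RAW264.7, a mouse macrophage-like line from ascites that forms osteoclasts. The shUSP8 cells, with the genotype label of a USP8 knock down, had received a hairpin against Usp8, an endosomal deubiquitinating enzyme, and the shCtrl cells, with the genotype label WT, a control hairpin. All 6 cultures had RANKL, the osteoclast-inducing cytokine, at 50 ng/mL for 4 days. The hairpin sequences, and whether the cells were clones or separate cultures, are not given in the sources used here, so the p-values measure the spread between libraries, which may be technical.

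Total expected counts (RSEM estimates of fragments per gene) lay between 19973522 and 20213939 per library, and Usp8 fell to 33.9 ± 1.68 CPM in shUSP8, against 136 ± 5.86 CPM in shCtrl (SD, n = 3 each; CPM is the count scaled to library size with TMM factors). Mean fragment length was estimated at 368.3 nt in shUSP8_2 and at 291.8 to 309.2 nt in the other 5 libraries. In summed TPM (a level per transcript length), the 10 osteoclast markers lay at 9453 to 9795 in shUSP8 and 9986 to 10861 in shCtrl, and 5 of the 10 fell. The 10 macrophage markers lay at 6135 to 6801 TPM in shUSP8 and 4009 to 4317 TPM in shCtrl, and 7 rose and 2 fell. Marker rises and falls are calls at an edgeR adjusted p under 0.05, by which 17.8% of all genes rose and 14.9% fell. Stromal markers summed to 2.38 TPM at most, and 4 of 5 T cell markers and 4 of 5 B cell markers were at 0 in every library. Levels in bulk RNA cannot separate fewer cells of a type from less RNA per cell. The part of the macrophage and osteoclast levels in the results that follow was not tested.

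The changes that passed the test among these genes went both ways, and most were small. Of 41 genes tested, 3 rose and 9 fell (edgeR quasi-likelihood test, Benjamini-Hochberg adjusted p under 0.05 over all 12440 genes). That is 29.3% of the genes tested, near the 32.8% of all 12440 genes that passed. Among all genes 17.8% rose and 14.9% fell. The genes that rose were Atg13, Tecpr1 and Gabarapl1. Those that fell were Becn1, Atg4a, Atg12, Map1lc3a, Map1lc3b, Gabarap, Gabarapl2, Nbr1 and Fundc1. The number that fell was 5 without shUSP8_3, shCtrl_2 or shCtrl_3, and the share of all genes that fell was 10.5%, 9.81% and 10.3% in those fits. On log2(TPM + 1), where the all-gene median was 0.11 instead of -0.0049, 5 rose and 2 fell, and 19.1% of all genes rose and 4.02% fell (limma, 23.1% in all). With library totals in place of TMM factors, 8 rose and 5 fell, against 25% and 9.42% of all genes (34.4% in all). With effective-length offsets, which model the effective length of each gene in each library, 2 rose and 6 fell, against 11.9% and 10.3% of all genes (22.1% in all). DESeq2 called 2 higher and 8 lower, against 11.9% and 10.6% of all genes (22.5% in all). In CPM the 2 groups did not overlap for 18 of the 41 genes and for 47.8% of all genes, and in TPM for 19 of the 41 and for 42.9% of all genes.

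**Figure D1:**
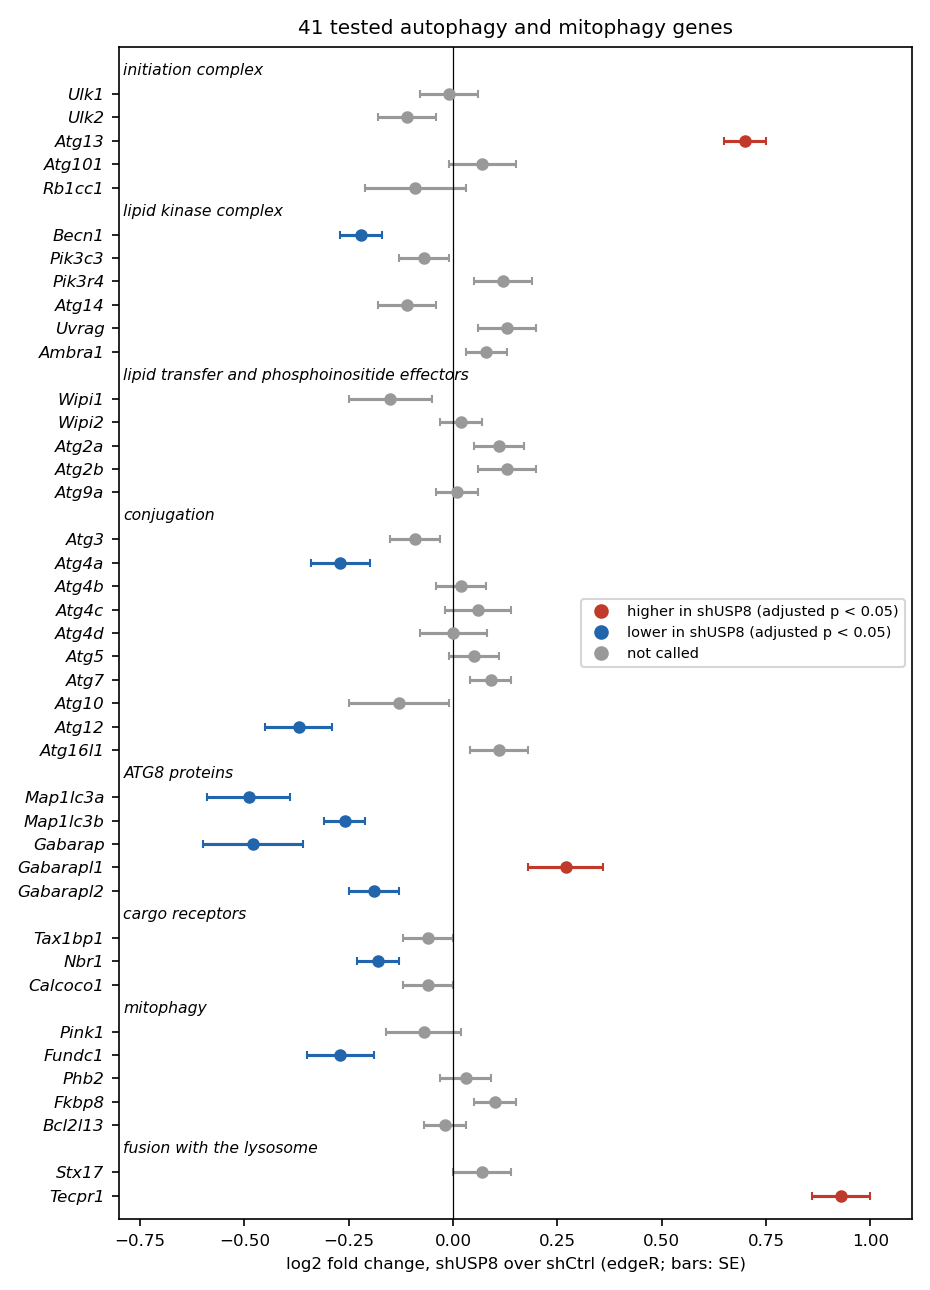
Log2 fold change of shUSP8 over shCtrl for the 41 tested genes, by role, with bars for the SE. Tecpr1 (0.93) and Atg13 (0.70) lie farthest to the right, 4 of the 5 ATG8 genes lie to the left, and the 29 genes that were not called lie between -0.15 and 0.13.

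The sizes of change were small beside those of other genes. An absolute log2 fold change of at least 0.3 was seen in 5 of the 41 genes (12.2%) and in 30% of all genes tested. The median absolute value was 0.11 for these genes and 0.17 for all genes. Their median level was higher, at a mean log2 CPM of 5.42 against 4.63 for all genes, and the part of level in this difference was not tested. The signed median was -0.01 here and -0.0049 over all genes. SEs of the log2 fold changes lay between 0.05 and 0.12.

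**Figure D2:**
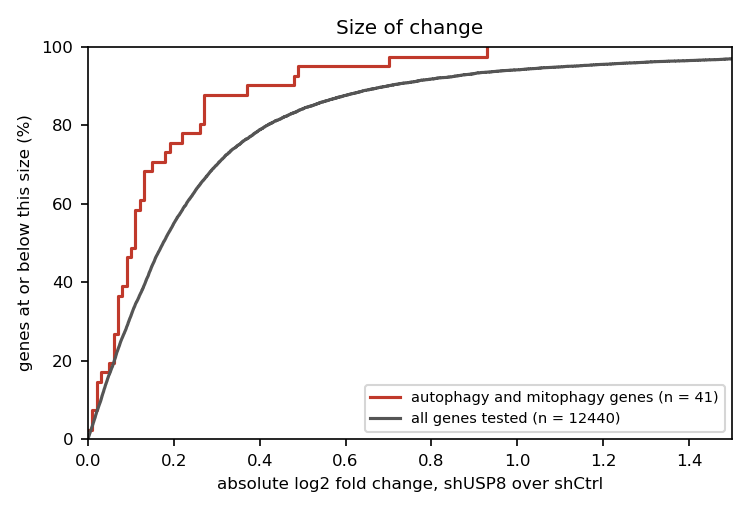
Cumulative share of genes (y axis, percent) by absolute log2 fold change (x axis) for the 41 tested genes of the route and for all 12440 genes. The curve of the 41 genes lies to the left, with a median of 0.11 against 0.17.

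By level per length, Gabarap was the most abundant (mean of 321 TPM over the 6 libraries), followed by Phb2 (275 TPM) and Fkbp8 (252 TPM). Gabarapl2 (132 TPM) and Becn1 (119.7 TPM) came next and were the last above 100 TPM. Map1lc3b (84.1 TPM) and Tax1bp1 (83.4 TPM) were neighbours in this order and did not differ beyond their spread between libraries. The median of the 42 genes was 22.2 TPM. Optn, the receptor optineurin, was at the bottom with 0.175 TPM. Its expected counts of 7, 8 and 4 in shUSP8 and 5, 9 and 8 in shCtrl were too low to be tested.

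The ATG8 proteins are made with a tail that the ATG4 proteases cut after a glycine, and the exposed glycine is what becomes linked to lipid. The last 30 coding bases of the 5 family genes follow (GENCODE M21, GRCm38, coding strand, 5′ to 3′). They are shown because all 5 genes were called and their tails are not all alike. Capitals mark the codon of that glycine, and each sequence ends with its stop codon.
Map1lc3a: tacgcctcccaagaaaccttcGGCttctga
Map1lc3b: gagacattcGGGacagcaatggctgtgtaa
Gabarap: tacagtgatgaaagcgtctatGGTctgtga
Gabarapl1: tacagtgatgaaagtgtctatGGAaaatga
Gabarapl2: tacagcggagagaacacttttGGCttctga
In Map1lc3b 5 codons follow the glycine codon before the stop, and in the other 4 genes 1 codon does. From the glycine codon on, Map1lc3a and Gabarapl2 end in the same bases. Gabarap and Gabarapl1 matched at 74.9% of aligned coding positions and Map1lc3a and Map1lc3b at 74.1%, and no pair of the 5 shared a coding stretch of 25 nt.

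All 5 ATG8 genes passed the test, 4 of them lower and 1 higher. Of all genes 14.9% were lower and 17.8% higher, and some of the 5 calls rested on single libraries. Gabarap (chromosome 11, 69991143 to 69994951) had 234, 168 and 195 CPM in shUSP8, against 265, 275 and 295 CPM in shCtrl. The groups were apart, and the lowest value was that of shUSP8_2, the library with the longest estimated fragments. The log2 fold change was -0.48 (SE 0.12; edgeR adjusted p = 0.0212), and it was -0.37 without shUSP8_2. The call was lost without shUSP8_3 (adjusted p = 0.0705), shCtrl_2 (0.0591) or shCtrl_3 (0.0808).

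Map1lc3a, one of the LC3 genes (chromosome 2, 155276297 to 155278073), had 14.5, 12.9 and 13.2 CPM in shUSP8, against 17.3, 17.9 and 21.6 CPM in shCtrl. The groups did not overlap, and Map1lc3a fell by 0.49 on the log2 scale (SE 0.10; edgeR adjusted p = 0.00232), a call that survived the loss of any single library. Map1lc3b, whose product is the usual autophagosome marker (chromosome 8, 121590361 to 121598760), had 103, 102 and 100.1 CPM in shUSP8 and 118, 125 and 123 CPM in shCtrl. It fell by 0.26 on the log2 scale (SE 0.05; edgeR adjusted p = 0.00131), and the adjusted p was 0.0819 with effective-length offsets and 0.335 on log2(TPM + 1). In TPM its groups overlapped, at 82.5, 84.8 and 76.1 TPM in shUSP8 and 81.9, 92 and 87.2 TPM in shCtrl.

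Gabarapl2, also called GATE-16 (chromosome 8, 111940703 to 111953612), had 149.9, 133 and 145 CPM in shUSP8, against 165, 168 and 156 CPM in shCtrl. Its log2 fold change was -0.19 (SE 0.06; edgeR adjusted p = 0.022). That call was lost without shUSP8_2 (0.0565), shUSP8_3 (0.0581), shCtrl_1 (0.0761) or shCtrl_2 (0.105), on log2(TPM + 1) (adjusted p = 0.382) and with library totals (0.142). Gabarapl1, also called GEC1 (chromosome 6, 129533160 to 129542346), was the riser, with 49.5, 39.9 and 51 CPM in shUSP8 and 39.6, 37.5 and 39.5 CPM in shCtrl. The groups were apart only narrowly, since shUSP8_2 lay just above shCtrl_1. Its log2 fold change was 0.27 (SE 0.09; edgeR adjusted p = 0.0355). The call was lost without shUSP8_1 (0.0755), shUSP8_3 (0.137), shCtrl_1 (0.0852), shCtrl_2 (0.129) or shCtrl_3 (0.1), with DESeq2 (0.0524) and with effective-length offsets (0.0549).

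Per length, the 5 ATG8 genes summed to 613, 514 and 573 TPM in shUSP8 and 651, 647 and 649 TPM in shCtrl. Gabarap made up 52.8%, 47.5% and 49.6% of that sum in shUSP8, against 54.9%, 54.7% and 56.3% in shCtrl. Gabarapl1 made up 8.8%, 8.88% and 10.1% in shUSP8, against 6.45%, 5.81% and 5.95% in shCtrl. These shares do not depend on the scaling between libraries, and for both genes the groups did not overlap. The TPM ratio of Gabarapl1 to Gabarap was 0.167, 0.187 and 0.203 in shUSP8 and 0.118, 0.106 and 0.106 in shCtrl. The shares of Map1lc3a, Map1lc3b and Gabarapl2 overlapped between the groups. Expected counts of Gabarap and Map1lc3a were whole in every library, while those of Map1lc3b, Gabarapl1 and Gabarapl2 were not whole in 5 or 6 libraries, as RSEM gives where fragments match more than 1 gene, so their values are less certain. Map1lc3b also lies within Gm20388, a protein-coding gene model on the same strand, and overlaps Zcchc14 on the opposite strand by 58 nt. The deposited tables hold no values under the symbol Gm20388.

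**Figure D3:**
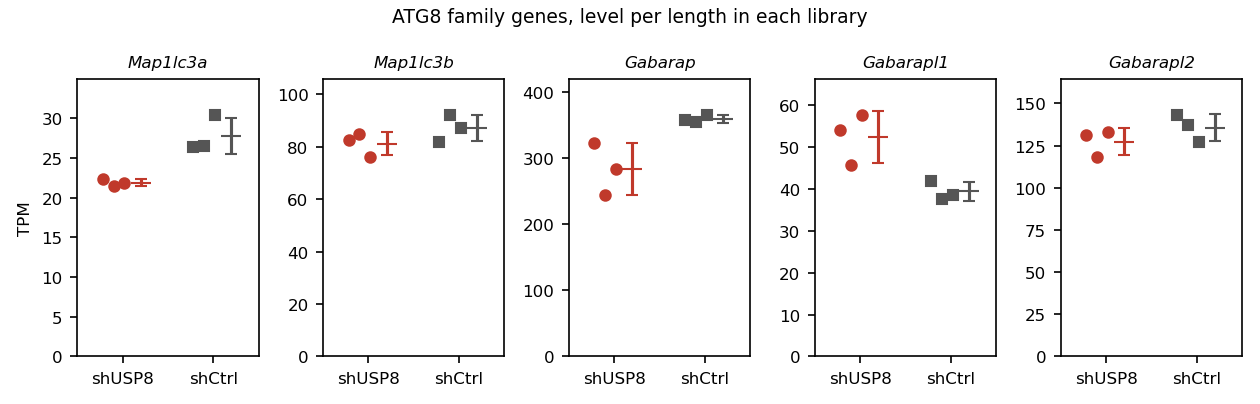
TPM of the 5 ATG8 genes in each shUSP8 library (circles) and each shCtrl library (squares), with the mean and SD beside them. Gabarap and Map1lc3a lie lower in every shUSP8 library, Gabarapl1 lies higher in every shUSP8 library, and the groups of Map1lc3b and Gabarapl2 overlap.

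In the initiation complex, 1 of 5 subunits passed, against 32.8% of all genes. Atg13, the regulatory subunit that holds the kinase and its scaffold together (chromosome 2, 91674618 to 91710576, minus strand), had 109, 111 and 111 CPM in shUSP8, against 65.7, 67.2 and 70.7 CPM in shCtrl. The libraries of each group lay close together and far from the other group. Atg13 rose 1.63-fold (log2 fold change 0.70, SE 0.05; edgeR adjusted p = 4.45e-07), kept the call in all 6 fits that leave out a library, and was at 0.83 on log2(TPM + 1). The kinases Ulk1 (log2 fold change -0.01, SE 0.07) and Ulk2 (-0.11, SE 0.07), the Atg13 partner Atg101 (0.07, SE 0.08) and the scaffold Rb1cc1 (-0.09, SE 0.12) were not called. The TPM ratio of Atg13 to Atg101 was therefore 1.1, 1.25 and 1.25 in shUSP8 and 0.718, 0.788 and 0.779 in shCtrl.

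On the opposite strand, Harbi1, a gene derived from a transposase, starts 276 nt from the annotated start of Atg13. It was chosen after its values were seen, with expected counts of 148, 131 and 139 in shUSP8 and 150, 157 and 162 in shCtrl (log2 fold change -0.23, SE 0.10; edgeR adjusted p = 0.105). Ambra1, also of the route, starts 19558 nt from the same point and was at 0.08 (SE 0.05; edgeR adjusted p = 0.266). The promoter window of Atg13 (RefSeq, GRCm38.p6, chr2:91710543-91710842, minus strand, 250 bases before to 50 after the start) is shown because Atg13 rose while both neighbours did not pass. Capitals mark a match to TGACNNNGC, the core of the antioxidant response element.
Atg13 promoter: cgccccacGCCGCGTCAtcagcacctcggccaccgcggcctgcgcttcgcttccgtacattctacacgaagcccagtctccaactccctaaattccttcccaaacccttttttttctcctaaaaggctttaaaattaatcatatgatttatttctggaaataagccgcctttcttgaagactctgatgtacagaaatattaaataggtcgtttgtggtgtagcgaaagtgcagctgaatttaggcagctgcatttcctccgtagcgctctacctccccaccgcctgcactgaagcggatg
Promoter windows were found for 36 of the 42 genes and searched on both strands for 5 motifs, of which TCACGTGA contains CACGTG. TGACNNNGC was in the windows of 5 of the 36, Ulk2, Atg13, Map1lc3b, Tax1bp1 and Bcl2l13, and in those of 13.99% of 27025 genes. CACGTG, the E-box core bound by the MITF and TFE family, was in 4, Atg14, Atg3, Atg5 and Atg7, against 8.09% of all genes. Its longer form TCACGTGA was in the window of Atg3 (1.12% of all genes), the interferon-stimulated response element in that of Nbr1 (3.99%), and the AP-1 motif TGANTCA in 0 of 36 (8.97%). Of the 12 called genes, with or without a window found, Atg13, Map1lc3b and Nbr1 held 1 of these motifs. The share of all genes with at least 1 of the 5 motifs was not computed.

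Of the lipid kinase complex, 1 of 6 subunits passed, against 32.8% of all genes. Becn1, its core subunit (chromosome 11, 101285952 to 101302286), had 92.8, 88.7 and 86.6 CPM in shUSP8, against 104, 108 and 100.3 CPM in shCtrl. All shUSP8 values were the lower ones, the log2 fold change was -0.22 (SE 0.05; edgeR adjusted p = 0.00673), and the call held when any single library was left out. Library totals (adjusted p = 0.0617), effective-length offsets (0.0582) and log2(TPM + 1) (0.395) each took it away. Its expected counts were not whole in 5 libraries. The catalytic subunit Pik3c3 (-0.07, SE 0.06), its partner Pik3r4 (0.12, SE 0.07), the autophagy-specific Atg14 (-0.11, SE 0.07), the endosomal Uvrag (0.13, SE 0.07) and the regulator Ambra1 (0.08, SE 0.05) were not called. With library totals, Uvrag (0.20; edgeR adjusted p = 0.0305) and Ambra1 (0.15; 0.0434) were called higher.

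In another readout, Pik3r4 had the largest group difference of the 41 genes, and this difference was not tested. Expected count over TPM is proportional to a gene's effective length, which follows the mix of its transcripts, and after subtraction of the median of the 200 genes nearest in length this was 1.21 times as long in shUSP8 as in shCtrl. On the log2 scale its deviations were 0.19, 0.13 and 0.10 in shUSP8 and -0.22, -0.16 and -0.03 in shCtrl, without overlap. Its level in TPM, 8.26, 9.92 and 9.81 in shUSP8 and 10.4, 9.61 and 8.6 in shCtrl, overlapped. Its log2 fold change was 0.12 on counts and -0.16 with effective-length offsets, and neither was called. Atg4b, a protease of ATG8 proteins, had its lowest effective length in shUSP8_2. There it was at -0.36 on the same scale, against -0.05 to 0.15 in the other 5 libraries. The TPM of Atg4b was 42.8, 60.4 and 47.3 in shUSP8 and 39.4, 39.1 and 34.6 in shCtrl, without overlap. Its log2 fold change was 0.39 on log2(TPM + 1) (limma adjusted p = 0.0615) and 0.29 with effective-length offsets (edgeR adjusted p = 0.138). No other gene of the 41 had a group difference above 0.2 on this scale. Smaller differences without overlap were seen for Atg7 (-0.08) and Fkbp8 (0.01). The share of all genes without overlap in effective length was not computed.

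The phosphoinositide effectors and lipid transfer proteins had 0 of 5 members called by edgeR, against 32.8% of all genes. DESeq2 also called 0 of 5, against 22.5% of all genes. Wipi1 and Wipi2, which bind the lipid made by the kinase complex, were at -0.15 (SE 0.10) and 0.02 (SE 0.05). Atg2a and Atg2b, which carry lipid to the growing membrane, were at 0.11 (SE 0.06) and 0.13 (SE 0.07), and Atg9a, a scramblase in vesicles that seed it, was at 0.01 (SE 0.05). Atg2a was called higher with library totals (0.18; edgeR adjusted p = 0.0354) and without shUSP8_1 (0.15; 0.041), and Atg2b without shUSP8_1 (0.21; 0.00744). A p that misses the threshold does not show that levels were equal. Differences of the size of these SEs were not detectable with 3 libraries a group.

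In the conjugation machinery, 2 of 10 genes fell, against 14.9% of all genes. Atg12, the ubiquitin-like protein that is joined to Atg5 (chromosome 18, 46730144 to 46741580), had 24.3, 25.9 and 26.9 CPM in shUSP8, against 30.5, 31.9 and 37.5 CPM in shCtrl. The groups were apart and shCtrl_3 was the highest, and Atg12 fell by 0.37 on the log2 scale (SE 0.08; edgeR adjusted p = 0.00458). The call survived the loss of any single library but not the log2(TPM + 1) scale (adjusted p = 0.169). Atg5 itself was at 0.05 (SE 0.06), and the TPM ratio of Atg12 to Atg5 was 0.38, 0.394 and 0.389 in shUSP8 and 0.488, 0.47 and 0.606 in shCtrl. Atg4a, a protease known in human cells to prefer the GABARAP subfamily, averaged 40.6 ± 3.05 CPM in shUSP8 and 49.1 ± 2.56 CPM in shCtrl (SD, n = 3 each; log2 fold change -0.27, SE 0.07; edgeR adjusted p = 0.00943). Its call was lost without shUSP8_3 (0.0543) or shCtrl_3 (0.0505) and on log2(TPM + 1) (0.117). Its expected counts were not whole in any of the 6 libraries, so its values are less certain.

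Atg4b, Atg4c and Atg4d, the other ATG8 proteases, were at 0.02, 0.06 and 0.00064 on the log2 scale. Within the TPM of the 4 ATG4 genes, Atg4a took 26.1%, 24.5% and 25.9% in shUSP8, against 31.9%, 29.7% and 33.8% in shCtrl. The share of Atg4b was 40.4%, 48.9% and 42.6% in shUSP8, against 38.1%, 37.3% and 35.5% in shCtrl, though on counts it was at 0.02. The part of Atg4b in the lower share of Atg4a was not tested. The E1-like enzyme Atg7 (0.09, SE 0.05), the E2-like enzymes Atg3 (-0.09, SE 0.06) and Atg10 (-0.13, SE 0.12), and Atg16l1, which places the complex on the membrane (0.11, SE 0.07), were not called. Atg7 passed on log2(TPM + 1) (0.29; limma adjusted p = 0.0145) and with library totals (0.16; edgeR adjusted p = 0.0321), and Atg3 was called lower without shUSP8_1 (-0.14; edgeR adjusted p = 0.041). Among others, gene spans overlap on opposite strands for Atg4b and Thap4, Atg4d and Kri1, and Atg2b and Gskip. They also do for Atg9a and Ankzf1, Bcl2l13 and Bid, and Fkbp8 and Kxd1. The overlap is 10366 nt for Becn1 and Cntd1 and 5428 nt for Rb1cc1 and 4732440D04Rik, also on opposite strands. No source used here states a strand-specific count, and reads shared within these overlaps were not examined. Expected counts of Atg4b and Fkbp8 were whole in every library. Those of Bcl2l13 were not whole in 1 library, those of Becn1 and Atg9a in 5, and those of Rb1cc1, Atg2b and Atg4d in 6.

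Of the cargo receptors, which tie ubiquitin-marked or other cargo to ATG8 proteins, Nbr1 fell and 2 other tested genes were not called. Over all genes, 14.9% fell. Nbr1 averaged 202 ± 9.59 CPM in shUSP8 and 229 ± 8.27 CPM in shCtrl (SD, n = 3 each), without overlap (log2 fold change -0.18, SE 0.05; edgeR adjusted p = 0.0222). Its call was lost without shUSP8_3 (0.0591), shCtrl_2 (0.0778) or shCtrl_3 (0.0844), on log2(TPM + 1) (0.468) and with library totals (0.161). Tax1bp1, a ubiquitin-binding receptor, was at -0.06 (SE 0.06), and Calcoco1, a receptor for the endoplasmic reticulum, at -0.06 (SE 0.06).

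Among the mitophagy genes, 1 of 5 passed, against 32.8% of all genes. Pink1, the kinase that marks damaged mitochondria, had 43.3, 39.5 and 36.1 CPM in shUSP8 and 38.3, 39.9 and 46.3 CPM in shCtrl. The groups overlapped in part, with the lowest value in shUSP8_3 and the highest in shCtrl_3 (log2 fold change -0.07, SE 0.09; edgeR adjusted p = 0.594). Fundc1, a receptor of the outer mitochondrial membrane (chromosome X, 17556564 to 17572325), had 19.8, 17 and 19.2 CPM in shUSP8, against 21.9, 22.3 and 23.1 CPM in shCtrl. It fell without overlap (log2 fold change -0.27, SE 0.08; edgeR adjusted p = 0.0174). The call was lost without shUSP8_2 (0.0552), shCtrl_2 (0.0538) or shCtrl_3 (0.0673), with DESeq2 (0.0806), effective-length offsets (0.11), library totals (0.0623) and on log2(TPM + 1) (0.287).

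The inner-membrane prohibitin Phb2 was at 0.03 (SE 0.06), and the outer-membrane receptors Fkbp8 and Bcl2l13 at 0.10 (SE 0.05) and -0.02 (SE 0.05). Fkbp8 was called on log2(TPM + 1) (0.23; limma adjusted p = 0.0219) and with library totals. In summed TPM the 5 mitophagy genes lay at 663, 616 and 649 in shUSP8 and 585, 568 and 551 in shCtrl, most of it from Phb2 and Fkbp8. The median of all genes was 0.11 on log2(TPM + 1), against -0.0049 on TMM-scaled counts. On TMM-scaled counts Phb2 and Fkbp8 were not called, and the only called gene of the 5, Fundc1, fell.

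The widest change of the set was that of Tecpr1, a tether between autophagosomes and lysosomes that binds the Atg12 and Atg5 conjugate (chromosome 5, 144194442 to 144223615, minus strand). It had 41.8, 45.6 and 47.3 CPM in shUSP8, against 25.4, 23 and 22.4 CPM in shCtrl. No library of a group came near those of the other. Tecpr1 rose 1.9-fold (log2 fold change 0.93, SE 0.07; edgeR adjusted p = 1.23e-06) and kept its call in all 6 fits that leave out a library, at 0.89 to 0.98. Stx17, the SNARE of autophagosomes, was at 0.07 (SE 0.07), and the TPM ratio of Tecpr1 to Stx17 was 1.08, 0.973 and 1.2 in shUSP8 and 0.553, 0.552 and 0.72 in shCtrl. Promoter windows of Tecpr1 (chr5:144223566-144223865, minus strand) and Gabarapl1 (chr6:129532942-129533241, plus strand) follow, as those of the other genes that rose (RefSeq, GRCm38.p6). Neither holds a match to the 5 motifs searched, which says only that these letters are not in this window.
Tecpr1 promoter: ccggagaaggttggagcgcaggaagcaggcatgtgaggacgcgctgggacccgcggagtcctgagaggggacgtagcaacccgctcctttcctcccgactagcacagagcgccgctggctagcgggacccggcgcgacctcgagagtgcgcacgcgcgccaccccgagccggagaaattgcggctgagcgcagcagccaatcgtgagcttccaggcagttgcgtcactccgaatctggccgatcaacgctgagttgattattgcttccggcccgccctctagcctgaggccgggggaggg
Gabarapl1 promoter: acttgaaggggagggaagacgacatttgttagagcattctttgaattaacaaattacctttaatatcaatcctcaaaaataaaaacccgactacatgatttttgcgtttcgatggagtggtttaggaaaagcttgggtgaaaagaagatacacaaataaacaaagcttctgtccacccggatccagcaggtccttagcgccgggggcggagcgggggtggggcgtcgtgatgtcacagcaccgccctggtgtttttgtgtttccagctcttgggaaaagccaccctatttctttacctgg

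**Figure D4:**
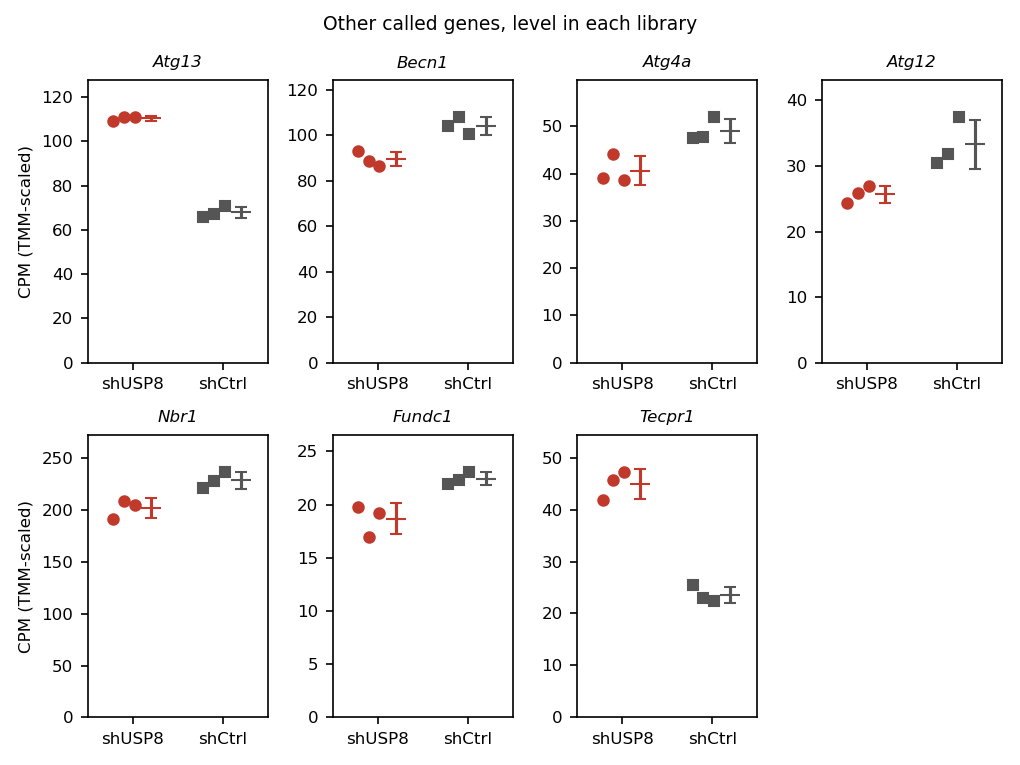
CPM (TMM-scaled) of the 7 called genes outside the ATG8 family in each shUSP8 library (circles) and each shCtrl library (squares), with the mean and SD beside them. Atg13 and Tecpr1 lie higher in every shUSP8 library, and Becn1, Atg4a, Atg12, Nbr1 and Fundc1 lie lower in every shUSP8 library.

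A list of 47 further autophagy and mitophagy genes, written from general knowledge, had all members tested, of which 9 rose and 8 fell (edgeR; 36.2%, against 32.8% of all genes). Sqstm1, the receptor p62, had the smallest p, with 1993, 1970.5 and 1973 CPM in shUSP8, against 1061, 1109 and 1223 CPM in shCtrl (log2 fold change 0.81, SE 0.06; edgeR adjusted p = 8.65e-07). Vcp, an ATPase that extracts ubiquitinated proteins (0.23, SE 0.05), and Rptor, the mTORC1 subunit that recruits substrates (0.24, SE 0.05), also rose. Ncoa4, the receptor for ferritin, had 212, 241 and 239.9 CPM in shUSP8, against 336, 346 and 352 CPM in shCtrl (log2 fold change -0.58, SE 0.06; edgeR adjusted p = 1.24e-05). The mitochondrial receptors Bnip3 and Bnip3l fell too, by 0.57 (SE 0.09) and 0.38 (SE 0.06) on the log2 scale. Bnip3 had 413, 439 and 359 CPM in shUSP8, against 576, 558 and 664 CPM in shCtrl. Tmem41b, a lipid scramblase of autophagosome formation, and Tollip, a ubiquitin-binding adaptor, fell by 0.45 (SE 0.06) and 0.43 (SE 0.06). These 8 genes kept their calls when any single library was left out. Bnip3l was not called on log2(TPM + 1) (adjusted p = 0.192) or with effective-length offsets (0.0934). The number of further genes that rose was 3 without shCtrl_2, 4 without shCtrl_1 or shUSP8_3 and 5 without shCtrl_3. Over all genes, the share that rose was 13.3% without shCtrl_2, 14.2% without shCtrl_1, 13.6% without shUSP8_3 and 13.9% without shCtrl_3.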

How the data were processed

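Deposited tables of the series gave expected counts and TPM for 6 libraries. The expected counts, as deposited by the authors, estimate fragments per gene, and 7.16% are not whole (tolerance 1e-06). The TPM values, as deposited by the authors, are levels per transcript length, scaled to the same total in each library. Mean fragment length was estimated from a line of expected count over TPM on transcript length in single-transcript genes. RSEM, DESeq2 1.28.1 and mm10 are named, without their roles, in the submitters' processing notes, and the aligner and annotation are not given in the sources used here. Paired reads were 150 nt long, per the labels' protocols. The columns WT-1 to WT-3 hold shCtrl_1 to shCtrl_3 by genotype label and number. The columns KO-1 to KO-3 match no label in these letters and were read as shUSP8_1 to shUSP8_3, the only other group.

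After rounding of the expected counts, genes were kept by filterByExpr (counts of at least 10, totals of at least 15), libraries were scaled with TMM factors, and shUSP8 was set against shCtrl by the robust two-sided quasi-likelihood F test of edgeR 4.0.16 in R 4.3.3. A gene was called where the Benjamini-Hochberg adjusted p was below 0.05. Each SE was taken as the size of the log2 change over root F. As alternatives, RLE factors, library totals, no filter, DESeq2 1.42.0, limma 3.58.1 on log2(TPM + 1) and log2(TPM + 0.1), effective-length offsets (expected count over TPM, for genes at 0.5 TPM or more in every library), a block for the replicate number and the loss of each library were tried. Fold changes on the log2(TPM + pseudocount) scale understate those of low genes. The tests were tried on simulated data. Of 142604 transcripts named in the tables, 140751 (98.70%) were in GENCODE M21 (GRCm38), the source of coordinates and coding ends.

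Members and lists were chosen with earlier results of these data known. Every member could be named, with library values for called members that moved by at least 0.3 (log2), for the ATG8 genes and for Pink1, and other called members were given in the same way or as means. Of the further list, the 8 called genes with the smallest p were named. Python 3.11.15, Biopython 1.88 and matplotlib 3.10.9 were used.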

Additional observations from a re-analysis of the deposited data

How the results depend on the processing

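Of 12 called genes, Atg13, Tecpr1 and Map1lc3a kept direction and call under every alternative. The calls that rested on TMM scaling or on single libraries are given beside the genes. Library totals gave 8 genes that rose and 5 that fell, and both TPM scales gave 5 and 2. With a library left out, 2 to 4 rose and 5 to 10 fell, while the share of all genes that rose ranged from 13.3% to 18.7% and the share that fell from 9.81% to 16.5%. For the further list of 47, 5 rose and 5 fell with effective-length offsets, 4 fell on log2(TPM + 1) or log2(TPM + 0.1), and 3 to 8 rose and 6 to 10 fell in those same fits with a library left out. The median log2 fold change of the 41 genes was 0.07 with library totals, 0.10 on log2(TPM + 1) and 0.11 on log2(TPM + 0.1), against medians of all genes of 0.07, 0.11 and 0.13, and -0.03 to 0.02 with a library left out. Of all calls, 54.4% were higher in shUSP8 under TMM scaling, 72.6% under library totals and 82.6% on log2(TPM + 1). The cause of these differences was not tested. Depth left Optn untested, and 3 libraries a group limited what could be called at SEs of 0.05 to 0.12.

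With the replicate block, 3 of the 42 genes rose and 9 fell, as without it, and 7 and 6 of the further list, against 16.2% and 13.6% of all genes. Same-numbered libraries deviated from their group means with correlations of -0.00733, 0.0781 and -0.0542, shUSP8_1 correlated best with shCtrl_3 (0.119), and the labels do not call the numbers pairs.

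No called gene changed sign. Genes that were not called lay between -0.15 and 0.13 on TMM-scaled counts. With library totals, the sign turned for Ulk1 at 0.07, Pik3c3 at 0.0022, Tax1bp1 at 0.02, Calcoco1 at 0.01, Pink1 at 0.01 and Bcl2l13 at 0.06. On log2(TPM + 1), the sign turned for Ulk1 at 0.1, Ulk2 at 0.03, Rb1cc1 at 0.17, Pik3c3 at 0.05, Pik3r4 at -0.03, Atg3 at 0.04, Atg10 at 0.0014, Tax1bp1 at 0.06, Calcoco1 at 0.05, Pink1 at 0.04 and Bcl2l13 at 0.19. On log2(TPM + 0.1), the sign turned for Ulk1 at 0.11, Ulk2 at 0.03, Rb1cc1 at 0.18, Pik3c3 at 0.05, Pik3r4 at -0.03, Atg3 at 0.04, Atg10 at 0.0014, Tax1bp1 at 0.06, Calcoco1 at 0.06, Pink1 at 0.04 and Bcl2l13 at 0.19. With effective-length offsets, the sign turned for Rb1cc1 at 0.06, Pik3r4 at -0.16, Uvrag at -0.01, Atg4d at -0.03 and Bcl2l13 at 0.07. Atg4d was at -0.0027 with RLE factors, -0.01 without the filter and -0.0016 with DESeq2. Ranges over the fits that leave out a library crossed 0 for Ulk1 (-0.05 to 0.04), Atg101 (-0.0046 to 0.12), Rb1cc1 (-0.22 to 0.04), Wipi2 (-0.01 to 0.04), Atg9a (-0.01 to 0.03), Atg4b (-0.01 to 0.06), Atg4d (-0.06 to 0.05), Pink1 (-0.13 to 0.02), Phb2 (-0.03 to 0.07) and Bcl2l13 (-0.03 to 0.01).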
